A study of Mus musculus with 188 samples.

Results

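Free hemoglobin (Hb) at a nominal 400 μM was compared with untreated controls in organotypic mouse brain slices after 24 h, as measured by bulk mRNA sequencing. The comparison holds 20 of the 188 libraries of the series, namely the 10 libraries labelled Hb 400 μM for 24 h and the 10 labelled 0 μM for 24 h that carry the same batch labels, called batches 2 and 3 here. Controls of batch 1 were not used for it, since it holds no Hb library. All slices came from wild-type C57BL/6J mice of 6 to 8 weeks, of both sexes, cut coronally and placed 2 to an insert, and both groups were cultured alike until the treatment on day 7. The Hb was human protein purified from stored blood, and the controls are labelled 0 μM. The labels' protocol names only 200 μM, so the dose is given as the treatment tags have it, and whether 400 μM counts Hb molecules or heme groups was not stated in the labels.

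Outside red cells, Hb oxidizes and can release its heme. Haptoglobin binds free Hb and hemopexin binds free heme, while within cells heme oxygenase opens the heme ring and frees its iron, which is stored in ferritin or leaves the cell through ferroportin. The transcription factor NRF2, released from its repressor KEAP1 by electrophiles and oxidants, pairs with small MAF proteins on antioxidant response elements and turns on genes of glutathione, thioredoxin and NADPH metabolism. BACH1 occupies many of these elements until heme binds it, and iron regulatory proteins act on the messages of ferritin and of the transferrin receptor.

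After 24 h with Hb, the slices held more mRNA of a small group of genes, 15 of which were on a list of NRF2 targets. Gclm, the regulatory subunit of the enzyme that starts glutathione synthesis, was 1.73-fold higher. Nqo1, a quinone reductase and standard NRF2 target, was 1.76-fold higher, and Slc40a1, which encodes the iron exporter ferroportin, was 2.48-fold higher. The steepest rise was that of the cytokine gene Il19, at 6.68-fold. Of 16075 genes tested, 36 passed an adjusted p of 0.05, which is 0.224% of them. In this group 34 genes were raised (0.212%) and 2 were lowered (0.0124%), the latter being Tfrc, the transferrin receptor, and Pi15, a peptidase inhibitor. The rises were small for the most part, and 6 of the 36 genes changed by at least 2-fold and 13 by at least 1.5-fold.

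Counts were tested with edgeR's quasi-likelihood test with the batch as a term, and p-values were adjusted over all genes by the Benjamini-Hochberg method. Log2 fold changes are given with their standard error (SE), and levels are in CPM, the standard unit of counts relative to the library's total, scaled by the trimmed mean of M-values. Library names place the slices in 2 rounds of culture, with 6 Hb libraries and 7 controls in round 1 and 4 Hb libraries and 3 controls in round 2. The rounds differed in 5163 of 16230 genes (31.8%). With the round as a further term, 61 genes passed (0.376%), with 55 raised (0.339%) and 6 lowered (0.037%), and they included all 36. DESeq2 with the batch term called 79 (0.491%), of which 70 were raised (0.435%) and 9 lowered (0.056%). A gene that passed only with the round term is named as such. Both groups held 8 libraries of batch 2 and 2 of batch 3.

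Sequencing depth was alike in the groups, with 27567373 to 51447782 counts per library in the controls and 24549986 to 53203649 with Hb. Each group held 5 libraries whose name carries the letter F and 5 with M, and the summed Y-linked genes stood at 0 to 0.0232 CPM in the F libraries and 145 to 193 CPM in the M libraries. Every pair of libraries within a group differed by more than counting noise. Hb replicates 1 and 5 share a round and a name code, as do control replicates 2 and 10, and the labels do not say whether a code is an animal, so p-values measure the spread between these libraries, part of which may be technical. The markers of brain cells were present. In the controls, summed levels ran from 589 to 911 CPM for neuron markers, 8353 to 10088 for astrocyte markers, 28512 to 42002 for oligodendrocyte markers and 436 to 1728 for homeostatic microglia markers. Slices of adult brain in culture keep fewer microglia than the living tissue, a limit the study itself names. In bulk slices, fewer cells of a type and less RNA per cell cannot be told apart.

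The antioxidant response element has the core TGACNNNGC, and it overlaps the AP-1 motif TGACTCA wherever the latter is followed by GC. RefSeq promoter windows of 250 bases before to 50 bases after the start (build GRCm38.p6) were at hand for 27 of the 34 raised genes. TGACNNNGC lay, on either strand, in 9 of their 36 windows (25%), against 12.4% of 32851 windows of all genes. TGACTCA lay in 16.7% against 5.2%, and TGATGNAA, a core of ATF4 sites, in 2.78% against 3.97%. Of the lowered genes, 1 had windows, and neither of its 2 windows held any of the 3 motifs. Of the 6 raised genes from the lists of NRF2 targets and regulators with a single window and a match to either of the first 2 motifs before the start, the 4 with the largest change are shown with the 250 bases before the start, 5′ to 3′ on the gene's strand, to let the motifs be seen in place. Capitals mark TGACNNNGC in Gclm and G6pdx and TGACTCA in Srxn1 and Osgin1, also where they run on the opposite strand. A match describes letters and is no evidence of binding.
Srxn1 (chr2:152105274-152105523, plus strand): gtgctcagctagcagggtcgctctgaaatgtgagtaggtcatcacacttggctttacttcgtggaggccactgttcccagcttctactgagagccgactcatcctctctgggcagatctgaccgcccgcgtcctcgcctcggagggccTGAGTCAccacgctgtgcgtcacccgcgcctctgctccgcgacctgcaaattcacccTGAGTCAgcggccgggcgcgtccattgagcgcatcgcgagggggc
Osgin1 (chr8:119436897-119437146, plus strand): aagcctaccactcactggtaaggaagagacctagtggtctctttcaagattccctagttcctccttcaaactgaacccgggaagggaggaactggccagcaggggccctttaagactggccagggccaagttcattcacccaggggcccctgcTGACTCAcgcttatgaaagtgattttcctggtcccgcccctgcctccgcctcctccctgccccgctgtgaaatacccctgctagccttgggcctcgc
Gclm (chr3:122245307-122245556, plus strand): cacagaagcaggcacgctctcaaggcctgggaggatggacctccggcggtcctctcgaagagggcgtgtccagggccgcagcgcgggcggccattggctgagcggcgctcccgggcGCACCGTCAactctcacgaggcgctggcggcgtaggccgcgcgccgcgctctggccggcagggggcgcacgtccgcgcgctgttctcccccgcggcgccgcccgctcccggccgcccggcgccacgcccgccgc
G6pdx (chrX:74428881-74429130, minus strand): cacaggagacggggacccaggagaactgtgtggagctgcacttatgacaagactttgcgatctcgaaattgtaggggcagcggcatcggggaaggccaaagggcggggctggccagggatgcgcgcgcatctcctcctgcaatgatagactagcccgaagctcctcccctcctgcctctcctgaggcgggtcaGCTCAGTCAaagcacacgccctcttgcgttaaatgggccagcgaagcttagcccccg
The matches begin 102 and 45 bases before the start in Srxn1, 97 in Osgin1, 134 in Gclm and 57 in G6pdx.

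NRF2 target genes moved in 1 direction. Of 27 tested members of a list of such genes, 15 rose, none fell and all 27 had a positive log2 fold change, with a median of 0.43 against 0.0028 over all genes tested. With the round term 19 rose, the 4 further ones being Hmox1, Me1, Cbr3 and Aox1. The list was drawn up with earlier results of these data known, as were all the lists below. As a description per library, the mean of the 27 genes was taken relative to the control mean of the same round. It ran from -0.14 to 0.18 in the controls (median -0.03) and from 0.34 to 0.64 with Hb (median 0.55), so the groups did not overlap.

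**Figure D1:**
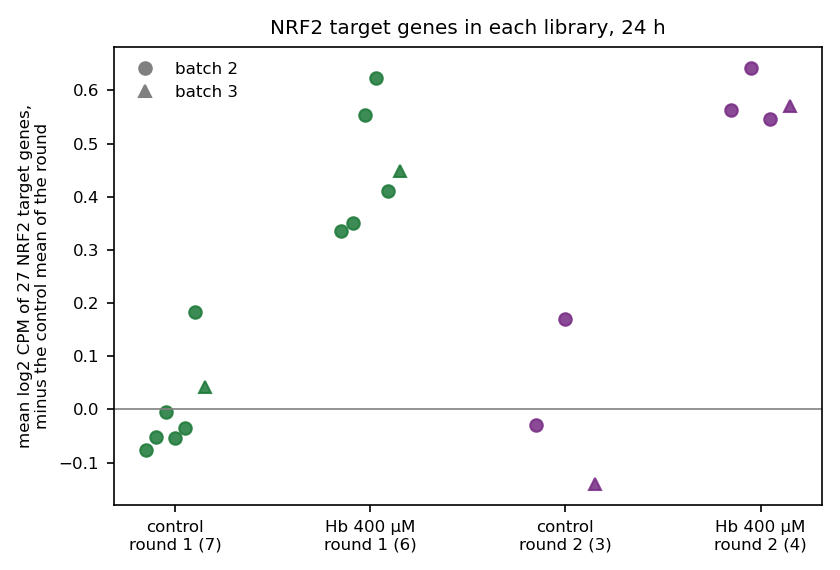
Mean log2 CPM of the 27 tested NRF2 target genes in each library, minus the control mean of the same round of culture (y axis, log2 units), for controls and Hb 400 μM in rounds 1 and 2 (x axis, number of libraries in brackets). Circles are batch 2 and triangles batch 3, and every Hb library, at 0.34 or more, sits above every control, at 0.18 or less.

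In the list of glutathione synthesis and use, 5 of 20 tested genes rose and none fell, with 13 positive, 7 negative and a median of 0.09. Gclm stood at 91.7 CPM in the lowest control, 117 in the median and 142 in the highest, and at 163, 199 and 243 CPM with Hb. Every Hb library was above every control, and the log2 fold change was 0.79 ± 0.07 (adjusted p = 7.58e-06), with 0.78 in batch 2 and 0.83 in batch 3. Such a full separation in either direction was seen in 12 of the 16075 genes, all 12 of them higher with Hb (0.0747%) and all among the 36. At least 9 Hb libraries lay above every control in 0.187% of all genes, and at least 8 in 0.305%. At least 4 lay below every control in 3.42%. Gclc, the catalytic subunit of the same enzyme, was also fully separated, with 64.7 to 102 CPM in the controls (median 88) and 104 to 131 with Hb (median 120.0), a log2 fold change of 0.44 ± 0.07 (adjusted p = 0.00241). Gsr, glutathione reductase, which restores oxidized glutathione, went from 58.6 to 90.2 CPM (median 83.1) to 96.9 to 115 CPM (median 105) and likewise did not overlap (0.43 ± 0.07, adjusted p = 0.00241).

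The cystine importer is made of 2 chains, and both messages were higher. Slc7a11, the chain that carries cystine, held 60.6 to 229 CPM in the controls (median 166) and 183 to 336 CPM with Hb (median 281). Of the Hb libraries 8 were above every control, and the log2 fold change was 0.88 ± 0.16 (adjusted p = 0.0127), 0.74 in batch 2 and 1.47 in batch 3. Slc3a2, the heavy chain that brings it to the membrane, ran in narrow ranges, 214 to 243 CPM (median 229) and 258 to 308 CPM (median 283), without overlap, and rose by 0.31 ± 0.04 (adjusted p = 0.000347). Abcc1, a pump that exports glutathione conjugates, was fully separated too, at 59.9 to 74.9 against 76.6 to 105 CPM (0.33 ± 0.05, adjusted p = 0.00315). Gstm1, a glutathione transferase of a family of similar genes, whose reads may be split among them, went from a median of 170.5 to 252 CPM. Its call (0.53 ± 0.10, adjusted p = 0.0194) was lost when control replicate 3, control replicate 10 or Hb replicate 7 was left out, and its log2 fold change was 0.43 in batch 2 and 0.93 in batch 3.

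**Figure D2:**
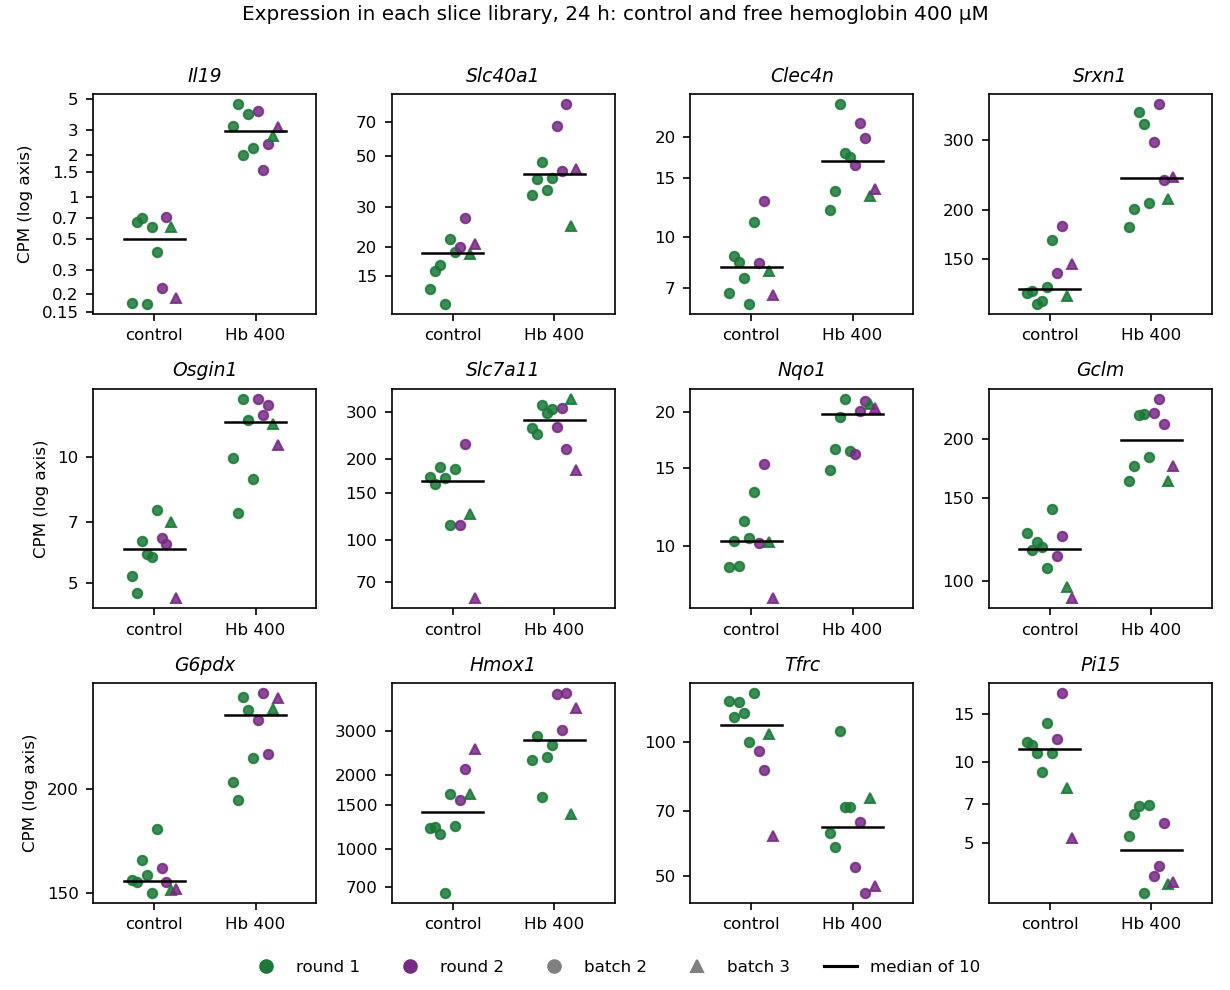
Expression in each library for 12 genes, in CPM on a log axis (y), for the 10 control and the 10 Hb 400 μM libraries (x). Colours give the round of culture, circles batch 2 and triangles batch 3, and the line is the median of 10 libraries. Il19, Gclm and G6pdx do not overlap between groups, whereas Hmox1 and Tfrc do.

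Of 13 tested genes of the thioredoxin and peroxiredoxin list, 3 rose and none fell, with 9 positive, 4 negative and a median of 0.05. Srxn1, sulfiredoxin, which repairs overoxidized peroxiredoxins, stood at 116 to 182 CPM in the controls (median 126) and 181 to 368 with Hb (median 240.0), and 9 Hb libraries were above every control (0.94 ± 0.13, adjusted p = 0.00101). Txnrd1, thioredoxin reductase, was fully separated, at 245 to 345 CPM (median 302) against 351 to 449 CPM (median 392), with a log2 fold change of 0.41 ± 0.06 (adjusted p = 0.0022). Prdx1, a peroxiredoxin that reduces peroxides, went from a median of 635 to 949 CPM (0.56 ± 0.11, adjusted p = 0.0213), and its call was lost without control replicate 2, Hb replicate 7 or Hb replicate 10.

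Of 13 tested genes that produce NADPH, 3 rose and none fell, with 8 positive, 5 negative and a median of 0.08. G6pdx, glucose-6-phosphate dehydrogenase and the entry of the pentose phosphate pathway, held 150.0 to 179 CPM in the controls (median 155) and 194 to 261 with Hb (median 246). No Hb library reached down to the controls, and the log2 fold change was 0.58 ± 0.06 (adjusted p = 2.21e-05), 0.53 in batch 2 and 0.74 in batch 3. Its exons share 13.6% of their bases with Ikbkg on the opposite strand, which was called as well (0.28 ± 0.04, adjusted p = 0.000716). The strand setting of the counting was not given in the sources used here, so reads in the shared part cannot be told apart. Pgd, which makes NADPH at the step that follows, went from a median of 118 to 160.4 CPM (0.45 ± 0.08, adjusted p = 0.00701). Tkt, transketolase of the same pathway, rose by 0.31 ± 0.06 (adjusted p = 0.0245), a call kept in 8 of the 20 fits that each left out 1 library, those without control replicate 1, 3, 4, 6 or 8 or Hb replicate 2, 6 or 8. Me1, malic enzyme, another source of NADPH, passed only with the round term (0.35 ± 0.06, adjusted p = 0.00285, against 0.227 without).

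Of the genes that handle electrophiles, Nqo1 held 7.64 to 15.3 CPM in the controls (median 10.3) and 14.8 to 21.4 with Hb (median 19.8). All but 1 Hb library were above every control, and the log2 fold change was 0.81 ± 0.11 (adjusted p = 0.00067), 0.72 in batch 2 and 1.2 in batch 3. Osgin1, an oxidative stress-induced growth inhibitor, went from a median of 6.03 to 12.1 CPM (0.94 ± 0.12, adjusted p = 0.000347). Ephx1, the microsomal epoxide hydrolase, rose by 0.38 ± 0.07 (adjusted p = 0.017). Cbr3, a carbonyl reductase, and Aox1, an aldehyde oxidase, passed only with the round term, at 0.40 ± 0.06 (adjusted p = 0.000749, against 0.0581 without) and 0.58 ± 0.09 (adjusted p = 0.00252, against 0.481 without).

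Among 10 tested regulators of NRF2 and BACH1, 1 was called. Mafg, a small MAF partner of both factors, went from a median of 102 to 123 CPM, and its log2 fold change was 0.27 ± 0.05 (adjusted p = 0.012). Nfe2l2, the gene of NRF2 itself, differed by 0.14 ± 0.08 (adjusted p = 0.995) and Bach1 by 0.16 ± 0.06 (adjusted p = 0.696), and neither passed. Sqstm1, the autophagy receptor p62 that binds KEAP1, differed by 0.36 ± 0.14 (adjusted p = 0.77).

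Of the genes for heme and iron, the exporter moved most. Slc40a1 stood at 11.3 to 26.9 CPM in the controls (median 18.9) and 24.9 to 83.9 with Hb (median 41.7). The lowest Hb library lay within the control range and the other 9 lay above it, and the log2 fold change was 1.31 ± 0.19 (adjusted p = 0.00147). It was 1.43 in batch 2 and 0.79 in batch 3, and 1.14 in round 1 and 1.35 in round 2. Tfrc, through which cells take up transferrin iron, went the other way, from 61.4 to 129 CPM (median 109) to 45.8 to 106 CPM (median 64.3). The ranges overlapped, with 4 Hb libraries below every control and all 10 below the control median, beside 3.42% of all genes with at least 4 Hb libraries below every control. Its log2 fold change was -0.68 ± 0.14 (adjusted p = 0.0449), -0.73 in batch 2 and -0.45 in batch 3. The call held in 4 of the 20 fits that each left out 1 library, those without control replicate 8 or 11 or Hb replicate 3 or 9, and was firmer with the round term (-0.63 ± 0.10, adjusted p = 0.00194). In the iron list these were the 2 called genes of 18 tested, and the median was 0.04.

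Several genes of iron storage and heme breakdown passed only once the round was a term. Fth1, the ferritin heavy chain, held 3626 to 6766 CPM in the controls (median 4688) and 4751 to 7425 with Hb (median 6314), in overlapping ranges. Its log2 fold change was 0.41 ± 0.08 with the round term (adjusted p = 0.0368) and 0.42 ± 0.11 without (adjusted p = 0.215). Hmox1, heme oxygenase 1, was wide in both groups, at 665 to 2545 CPM (median 1410) and 1384 to 4257 CPM (median 2752), and 6 Hb libraries exceeded every control, as at least 6 did in 1.21% of all genes. For Hmox1 the values were 0.84 ± 0.16 (adjusted p = 0.0166) with the round term and 0.94 ± 0.22 (adjusted p = 0.14) without, and DESeq2 without it gave 0.94 (adjusted p = 0.00668). The 2 batches gave 1.10 and 0.27. Ftl1, the ferritin light chain, whose exons overlap another gene on the opposite strand, differed by 0.44 ± 0.18 (adjusted p = 0.814).

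Blvrb, a biliverdin reductase, went from a median of 26.2 to 36.3 CPM and passed with the round term (0.47 ± 0.09, adjusted p = 0.0203, against 0.108 without). Slc48a1, which carries heme out of lysosomes, went from a median of 260.1 to 371 CPM (0.37 ± 0.05, adjusted p = 0.00119, against 0.0828 without the round term). With Hmox1 these were 3 of 11 tested genes of heme breakdown and transport, of which none passed without the round term. Alas1, the first enzyme of heme synthesis, was lower, with 53.8 to 68.1 CPM in the controls (median 59.4) and 38.7 to 63.7 with Hb (median 49.2). Of the Hb libraries 8 were below every control, beside at least 4 in 3.42% of all genes. Alas1 passed only with the round term (-0.33 ± 0.07, adjusted p = 0.0203, against 0.215 without). Fech, the last enzyme of heme synthesis, differed by 0.21 ± 0.05 (adjusted p = 0.208).

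The receptors that take up Hb and heme complexes did not pass. Cd163, the receptor of Hb bound to haptoglobin, held 1.26 to 5.25 CPM in the controls and 1.69 to 6.64 with Hb (0.19 ± 0.28, adjusted p = 0.995). Lrp1, the receptor of heme bound to hemopexin, held 1086 to 1836 CPM and 1030 to 3195 CPM (0.13 ± 0.17, adjusted p = 0.995), and its value changed sign to -0.06 when Hb replicate 6, the highest library, was left out. None of 8 tested genes of the scavenger list passed with either the batch term or the round term. Metallothionein genes Mt1 and Mt2 differed by -0.08 and -0.07, also without passing.

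Genes of the aryl hydrocarbon receptor, a sensor of planar aromatic ligands, were a second group with a raised median. Of 9 tested, 3 were called and all 9 were positive, with a median of 0.52. Cyp1a1, the P450 enzyme most closely tied to this receptor, was near the floor, with 1 to 16 counts in the controls and 6 to 64 counts with Hb, and rose by 1.70 ± 0.31 (adjusted p = 0.0151), by 2.26 in round 1 and 0.82 in round 2. Ahrr, the repressor of the receptor, rose from a median of 3.59 to 5.07 CPM (0.52 ± 0.10, adjusted p = 0.0304), a call kept in 7 of the 20 fits without 1 library, those without control replicate 1, 2, 4 or 6 or Hb replicate 1, 6 or 8. Cyp1b1, another of its P450 enzymes, passed only with the round term (0.70 ± 0.13, adjusted p = 0.0168, against 0.0828 without), and Nqo1 is on both lists.

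Few genes of inflammation and stress were called, beside 0.224% of all genes tested. At that share, a short list without a call says little about its genes. Il19, a cytokine of the interleukin 10 family, was scarce in the controls, at 5 to 36 counts or 0.171 to 0.719 CPM (median 0.501), and reached 63 to 237 counts or 1.54 to 4.60 CPM with Hb (median 2.95). All 10 Hb libraries were above every control. The log2 fold change was 2.74 ± 0.30 (adjusted p = 0.000101), 2.71 in batch 2 and 2.85 in batch 3, and it was the only called gene of 24 tested cytokines and chemokines. Clec4n, the C-type lectin receptor dectin-2 of myeloid cells, went from 6.29 to 12.8 CPM (median 8.11) to 12.1 to 25 CPM (median 16.9) and rose by 1.02 ± 0.14 (adjusted p = 0.00067), as the only called gene of 19 tested microglial activation genes. The related lectin gene Clec4d gave 0.69 ± 0.20 (adjusted p = 0.391). Of the activation genes the study names, Gpr84 gave 0.27 ± 0.26 (adjusted p = 0.995), with 2.07 to 7.49 CPM in the controls and 1.52 to 8.75 with Hb, and Tnfrsf1a gave 0.18 ± 0.05 (adjusted p = 0.208). DESeq2 called Tnfrsf1a (adjusted p = 0.0202).

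Fosl1, a subunit of AP-1, was the only called gene of 18 tested immediate early genes, with 4.52 to 8.22 CPM in the controls (median 4.99) and 5.54 to 10.5 with Hb (median 8.67). It rose by 0.70 ± 0.12 (adjusted p = 0.012), and 57.2% of its exonic bases overlap Ccdc85b on the opposite strand, so its reads are uncertain. Of 25 tested ATF4 and amino acid response genes, Slc3a2 was the only one called, and 20 were negative, with a median of -0.08. This list did not hold Slc7a11, which was called and was the only raised gene with TGATGNAA in its promoter window. No gene was called with the batch term or with the round term among 17 tested genes of endoplasmic reticulum chaperones, 14 heat shock chaperones, 16 p53 targets, 15 interferon-stimulated genes, 12 complement genes, 18 proliferation genes and 6 genes of metallothioneins and zinc handling. All 18 proliferation genes were negative in round 1 alone (median -0.22) and all 18 positive in round 2 alone (median 0.34), without a call. The 17 tested genes of ferroptosis and lipid peroxidation held 1 raised gene, Slc7a11, and 1 lowered gene, Tfrc.

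Cholesterol synthesis genes stood together without a call. All 20 tested members were positive, with a median of 0.19, and none passed with the batch term or with the round term, although 13 had an unadjusted p under 0.05. Such a p was reached by 18 in round 1 alone (median 0.24), 0 in round 2 alone (median 0.12) and 1 after 48 h (median 0.10). Sqle, squalene epoxidase, gave 0.19 at 24 h with the batch term. Targets of hypoxia-inducible factors leaned the other way, with 12 of 17 negative, a median of -0.25 and no call. Their median was -0.17 in round 1 alone, -0.11 in round 2 alone and -0.06 with 200 μM Hb. Car9, a carbonic anhydrase induced in hypoxia, gave -1.36 ± 0.38 (adjusted p = 0.32), with 1.75 to 13.7 CPM in the controls and 0.647 to 4.86 with Hb.

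**Figure D3:**
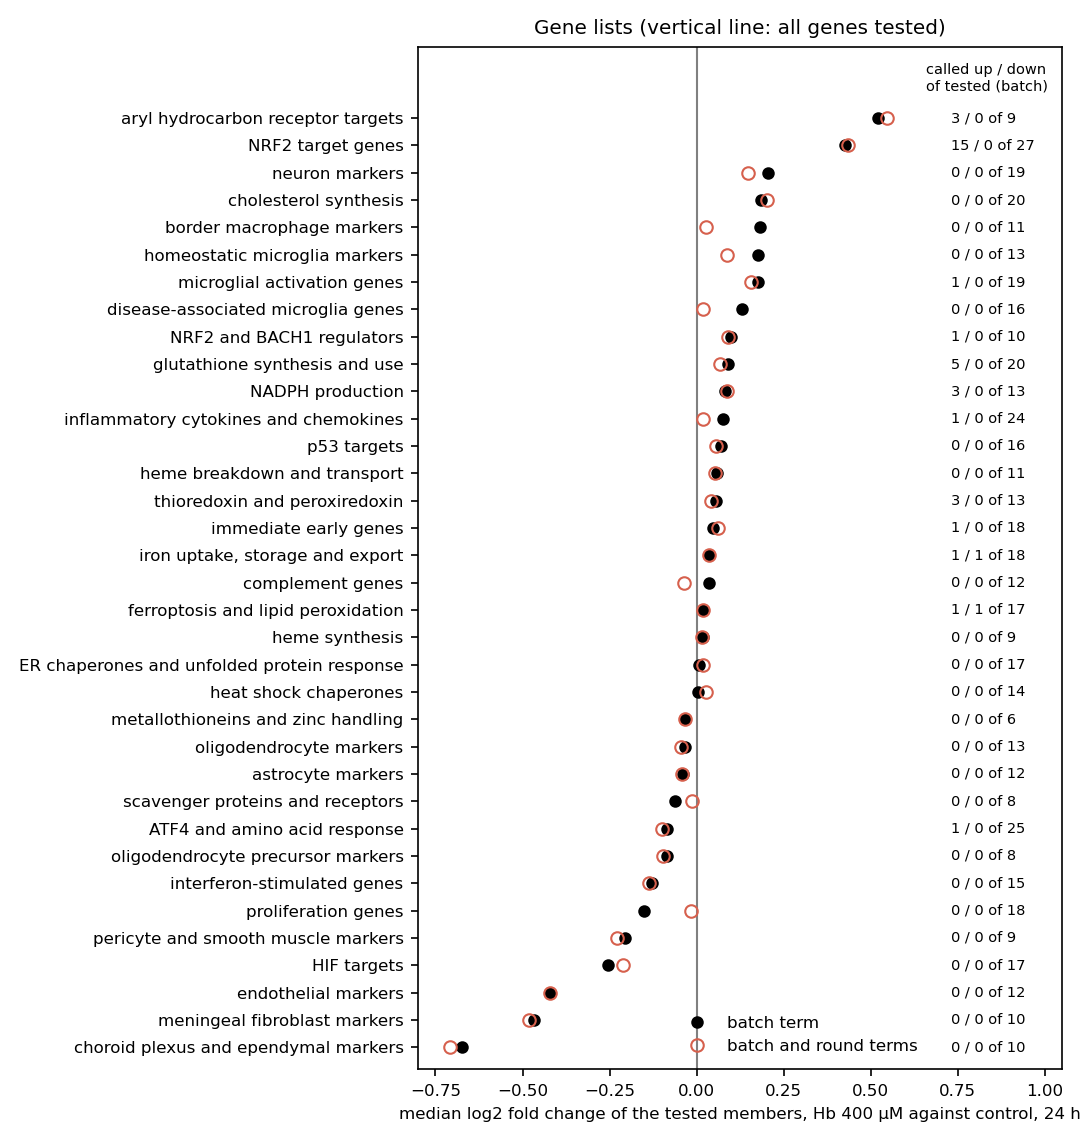
Median log2 fold change, Hb 400 μM against control at 24 h (x axis), over the tested members of each gene list (y axis), with the batch term (filled) and with batch and round terms (open). The text at the right gives called genes up and down of those tested with the batch term. Targets of the aryl hydrocarbon receptor (0.52) and of NRF2 (0.43) stand farthest to the right, and markers of meningeal fibroblasts (-0.47) and of choroid plexus and ependyma (-0.67) farthest to the left, without a called gene.

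Markers of cell types held no called gene in any list, with or without the round term. Medians were 0.21 for 19 neuron markers, 0.18 for 13 homeostatic microglia markers and 0.13 for 16 disease-associated microglia genes. For neuron markers the median was 0.23 in round 1 alone and 0.01 in round 2 alone. After 48 h it was -0.20, with 18 of 19 negative. With the round term, the medians of the microglia lists were 0.09 and 0.02. Summed homeostatic microglia markers ran from 436 to 1728 CPM in the controls (median 953) and 409 to 2376 with Hb (median 961). Astrocyte markers summed to 8353 to 10088 CPM in the controls (median 8513) and 4071 to 12170 with Hb (median 9221). Of the Hb libraries, 5 lay outside the control range for astrocyte markers. The list medians were -0.19 in round 1 and 0.18 in round 2 for astrocytes, and -0.18 and 0.47 for homeostatic microglia. All 10 meningeal fibroblast markers and all 10 choroid plexus and ependymal markers were negative, with medians of -0.47 and -0.67 (0.13 and 0.64 after 48 h). At 24 h these medians were -0.35 and -0.098 in round 1 alone, and -0.78 and -1.88 in round 2 alone. Summed, the choroid plexus markers ran from 127 to 1129 CPM in the controls (median 404) and 73.2 to 884 with Hb (median 210), and the meningeal markers from 545 to 3427 CPM (median 904) and 424 to 1501 (median 822), so both overlapped widely. The 12 endothelial markers had a median of -0.42 (0.29 after 48 h). At 24 h it was -0.17 in round 1 alone and -0.89 in round 2 alone. Their summed level ran from 169 to 547 CPM in the controls (median 206) and 178 to 242 with Hb (median 205). The part of these tissues in any single result was not tested. Red blood cell genes summed to 0.131 CPM or less in every library.

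Among the 12 called genes outside the lists, Pi15 was selected by its fold change and the others are named after their values were seen. Pi15 was lower, at 5.23 to 17.9 CPM in the controls (median 11.1) and 3.27 to 6.91 with Hb (median 4.72). Of the Hb libraries 5 were below every control, beside at least 4 in 3.42% of all genes. The log2 fold change of Pi15 was -1.14 ± 0.15 (adjusted p = 0.000606), -1.2 in batch 2 and -0.90 in batch 3. Adh7, an alcohol dehydrogenase that also acts on retinol, was scarce, with 10 to 49 counts in the controls and 16 to 82 with Hb (1.46 ± 0.25, adjusted p = 0.00996). Panx1, which forms membrane channels that release ATP, rose by 0.53 ± 0.10 (adjusted p = 0.0193), a call lost without Hb replicate 7. Cyb5a, cytochrome b5, and Map2k3, a kinase upstream of p38, both separated the groups fully, at 69.9 to 87.8 against 87.9 to 141 CPM and at 30.3 to 34.5 against 37.3 to 41.7 CPM. Their log2 fold changes were 0.48 ± 0.08 (adjusted p = 0.0034) and 0.29 ± 0.03 (adjusted p = 0.000133).

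The others of these 12 genes were Esd, Ypel5, Ikbkg, Chpf2, Sod1, Psmd5 and Psmd11, with log2 fold changes from 0.20 for Psmd5 to 0.46 for Esd. Sod1, copper-zinc superoxide dismutase, rose by 0.23 ± 0.05 (adjusted p = 0.0379), but kept its call in only 4 of the 20 fits without 1 library, those without control replicate 3 or 4 or Hb replicate 6 or 9. Psmd5, a chaperone in the assembly of the proteasome cap, kept its call in 5 of 20, those without control replicate 1 or Hb replicate 1, 2, 6 or 8, whereas Psmd11, a subunit of that cap, was fully separated (0.22 ± 0.03, adjusted p = 0.00317). In a list of 36 proteasome genes drawn up after these values were seen, those 2 were called and 33 were positive, with a median of 0.09. Chpf2 shares 44.1% of its exonic bases with Smarcd3 on the opposite strand.

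The round term added 4 lowered genes. Besides Alas1 they were Cyp26b1, which degrades retinoic acid (-0.52 ± 0.10, adjusted p = 0.0168), Apln, the peptide ligand apelin (-0.43 ± 0.09, adjusted p = 0.0384), and Plce1, a phospholipase C (-0.26 ± 0.06, adjusted p = 0.0376). Cyp26b1 stood at 15.0 to 34.6 CPM in the controls (median 21.7) and 13.6 to 22.7 with Hb (median 14.4). For it 6 Hb libraries were below every control, beside at least 4 in 3.42% of all genes. Without the round term Cyp26b1, Apln and Plce1 had adjusted p-values of 0.165, 0.163 and 0.0579. Of the 21 added raised genes, Tmem179, a membrane protein, had the third largest log2 fold change at 0.68 ± 0.09 (adjusted p = 0.000288, against 0.342 without the round term), after Hmox1 and Cyp1b1. Cat, catalase, which breaks down hydrogen peroxide, went from a median of 159 to 224 CPM (0.34 ± 0.06, adjusted p = 0.0118, against 0.101 without).

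The Hb effect was not called as different between the rounds, or between libraries of letter M and F, for any gene with edgeR or DESeq2. In edgeR, 974 and 600 genes had an unadjusted p under 0.05 for these differences of effect. For Gclm the log2 fold change was 0.68 in round 1 and 0.94 in round 2, and for Gstm1 it was 0.33 and 0.80. When all libraries of batches 2 and 3 shared 1 estimate of the spread, 9 of the 36 genes lost their call. For Nqo1 and Abcc1 the adjusted p was then 0.0519, for Gclc 0.0828, for Ephx1 0.191, for Fosl1 0.359 and for Slc7a11 0.473, and the others were Psmd5, Ahrr and Tkt. All 9 were called in the same fit with the round term.

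At 200 μM Hb, set against the same controls, 17 of 16164 genes were called (0.105%), 14 raised (0.0866%) and 3 lowered (0.0186%). Side by side, the log2 fold changes at 200 and 400 μM were 0.54 ± 0.08 and 0.79 ± 0.07 for Gclm, 0.94 ± 0.19 and 1.31 ± 0.19 for Slc40a1, and 2.46 ± 0.29 and 2.74 ± 0.30 for Il19. Tested directly in 10 libraries each, no gene was called between 400 μM and 200 μM (132 genes had an unadjusted p under 0.05, and DESeq2 called 0). Of the 36 genes, which were selected at 400 μM, 33 had a positive difference and 3 a negative one, with a median of 0.13. The difference for Gclm was 0.24, with a 95% interval of 0.09 to 0.40, which does not show that the doses act alike.

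After 48 h with 400 μM Hb, in 10 libraries against 9 controls of that time, 51 of 16309 genes were called (0.313%), 41 raised (0.251%) and 10 lowered (0.0613%). They held 26 of the 36 genes of 24 h, which is 72.2% of the 36 and 51% of the 51, and all 36 kept their sign. The median log2 fold change of these genes, which were selected at 24 h, was 0.39 at 48 h and 0.46 at 24 h. Il19 stood at 0.0798 to 0.503 CPM in the 48 h controls and 2.13 to 4.17 with Hb, again without overlap (3.18 ± 0.28, adjusted p = 3.6e-09). Tfrc was lower by the call as well (-0.89 ± 0.15, adjusted p = 0.00148), and Fth1 rose (0.65 ± 0.12, adjusted p = 0.00317). No gene was called for a difference in effect between 48 h and 24 h (307 at an unadjusted p under 0.05, DESeq2 0). For Slc40a1 the difference was -0.09, with an interval of -0.70 to 0.52, and for Gclm -0.05, with -0.27 to 0.16.

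Heme-albumin at 400 μM for 24 h was given in batch 1, with 10 libraries and 10 controls of that batch. There 3103 of 14875 genes were called (20.9%), 1648 raised (11.1%) and 1455 lowered (9.78%). Of the Hb genes, 34 of the 35 that could be tested were among them, which is 94.4% of the 36 and 1.1% of the 3103. All 35 had the same sign, and the log2 fold change was larger with heme-albumin for 31. The difference between the 2 effects was called for 806 of 16119 genes (5%), with Hb above heme-albumin for 368 (2.28%) and below it for 438 (2.72%). It was called for 18 of the 36, each of them smaller with Hb. Agent and batch cannot be told apart in it, since no batch held both.

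The gap between agents was uneven over the genes. Fosl1 rose by 2.52 with heme-albumin, a difference of -1.82 ± 0.22 for Hb (adjusted p = 1.54e-06). Slc3a2 rose by 1.22, a difference of -0.91 ± 0.10 (adjusted p = 7.94e-07), Slc40a1 by 2.38 (-1.07 ± 0.27, adjusted p = 0.0145) and Srxn1 by 1.76 (-0.82 ± 0.17, adjusted p = 0.00198). In contrast, the difference did not pass for Il19 (-0.32 ± 0.51, adjusted p = 0.804), Nqo1 (-0.31 ± 0.14, adjusted p = 0.239) and Gclm (-0.31 ± 0.10, adjusted p = 0.0549). For G6pdx both agents gave 0.58.

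**Figure D4:**
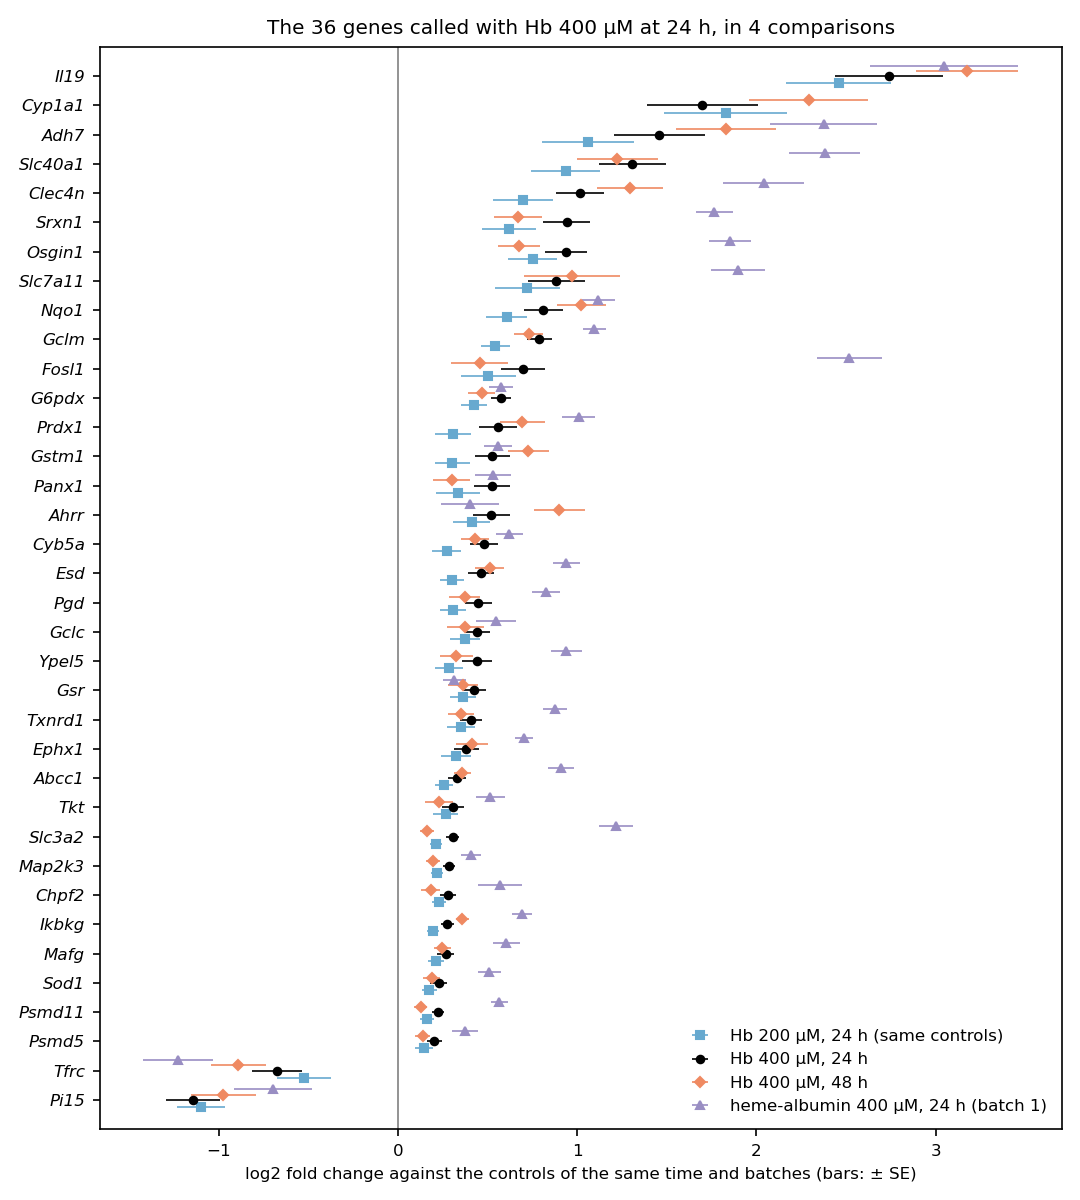
Log2 fold change against controls of the same time and batches (x axis, bars ± SE) for the 36 genes called with Hb 400 μM at 24 h (y axis), in that comparison (black), with Hb 200 μM at 24 h (blue, same controls), Hb 400 μM at 48 h (orange) and heme-albumin 400 μM at 24 h in batch 1 (purple). Every plotted value has the sign it has with Hb 400 μM at 24 h, and Fosl1 and Slc3a2 show the widest gaps to heme-albumin relative to their SE.

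Among genes with a mean of at least 1 CPM, Acod1, Cxcl2, Il11, Slco2a1 and Ptgs2 had the largest called differences with Hb below heme-albumin. None of these was called with Hb. Acod1, which makes itaconate in activated macrophages, gave -0.89 with Hb and 3.32 with heme-albumin (difference -4.21, adjusted p = 0.00167). It was scarce in the Hb comparison, at 0.567 to 1.73 CPM in the controls and 0.182 to 0.939 with Hb. For Cxcl2, a neutrophil chemokine, the pair was -0.14 and 3.58 (difference -3.74, adjusted p = 0.000139), and for Il11, a cytokine, 0.56 and 3.33 (difference -2.77, adjusted p = 7.45e-06). Ptgs2, cyclooxygenase 2, gave 0.20 and 2.73, and Slco2a1, a prostaglandin transporter, -0.62 and 1.93. Among the largest in the other direction were Gpr34, a receptor of homeostatic microglia (0.24 and -1.98), Ccl12, a chemokine of myeloid cells (0.15 and -1.99), Ms4a6b (0.32 and -1.56) and Clec12a, an inhibitory lectin receptor of myeloid cells (-0.13 and -1.81).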

How the data were processed

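Polyadenylated RNA of slice cultures was sequenced as TruSeq libraries. The deposited values are whole, unnormalized read counts, 1 table of genes per library. Per the labels, the submitters' processing notes name featureCounts and GRCm39, and the strand setting and versions were not given in the sources used here. Groups and batches came from the treatment and batch labels, and rounds and F or M letters from the library names. The files list 25528 identifiers, 25424 with a symbol.

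Genes were kept by filterByExpr (smallest count 10, smallest total count 15). Counts were scaled by TMM and tested with the quasi-likelihood F test of edgeR 4.0.16 (R 4.3.3), with the batch as a term and Benjamini-Hochberg adjustment over all genes at 0.05. The SE was derived from each fold change and its F (their ratio after taking the root of F), intervals are 1.96 standard errors wide on either side, and log2 CPM used a prior count of 2. Fits were tested on simulated counts. Hb at 200 μM was fitted with both other groups of 24 h. The 48 h and heme-albumin comparisons used their own controls, and differences of effects were tested in joint fits, 127 libraries in all. DESeq2 1.42.0, RLE scaling, other filters, round, letter and replicate block terms, single batches or rounds and leaving out each library served as alternatives. Libraries labelled with conflicting treatments (21) entered no comparison.

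The members and gene lists were chosen with earlier results of these data known. Genes named are those the study names, the 10 raised and 10 lowered most among called genes of at least 1 CPM with either term, called members of the lists, and for differences the 5 largest called in each direction, of which 1 is not reported here. Others, also those given to show a list, were chosen after their values were seen. Shared exons were taken from GENCODE M21 and promoters from RefSeq, both on GRCm38, for neighbours and letters only. The depth (24549986 to 53203649 counts) leaves genes below 1 CPM with few counts, and p-values cover the spread between libraries.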

Additional observations from a re-analysis of the deposited data

Results flagged for a closer look

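Over the 61 called genes and the 10 genes the study names, 130 groups of 10 libraries were examined for a library that stands apart from the others, and 10 were found. Chance alone flags about 1 in 20 such groups. Values are log2 CPM, followed by that of the nearest other library of the group.

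Hb replicate 6 was the highest of its group for Lrp1, the large scavenger receptor (11.64, next 10.61), for Chpf2 (6.759, next 6.524), for Abcc1 (6.72, next 6.436) and for Cyp26b1 (4.509, next 4.149). Hb replicate 3 was lowest for Tnfrsf1a, the receptor of tumor necrosis factor (7.607, next 7.824), and Hb replicate 10 for Pip4p2 (5.395, next 5.796). Control replicate 11 was lowest for Slc7a11, the cystine importer (5.923, next 6.833), and for Pip4p2 (5.071, next 5.447). Control replicate 8 was highest for Fosl1 (3.048, next 2.56) and control replicate 6 for G6pdx (7.486, next 7.36). The call of Slc7a11, Chpf2, Abcc1, Fosl1 and G6pdx held in all 20 fits that left out 1 library each. The cause of these stray values was not tested.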

How the results depend on the processing

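The count of called genes was 36 with the batch term and lay between 28 (without Hb replicate 7) and 42 (without control replicate 8) when libraries were left out in turn, and between 53 (without control replicate 7) and 68 (without Hb replicate 8) when the round was a term. It was 36 with RLE scaling, 35 without a filter, 36 with a strict filter, 38 without the batch term, 37 with the letter term, 31 in batch 2 alone (28 of the 36), 24 in round 1 alone (20 of the 36) and 43 when all libraries of these batches shared the spread, of which 27 were among the 36 (lost were Nqo1, Ephx1, Psmd5, Slc7a11, Gclc, Ahrr, Tkt, Abcc1 and Fosl1). It moved to 79 with DESeq2, 61 with the round term, 73 with round and letter terms, 55 in batch 2 with the round term and 86 with all libraries and the round term. It was 0 in batch 3 alone (2 libraries against 2, 505 genes at an unadjusted p under 0.05) and 0 in round 2 alone (4 against 3, 730 genes), fits with fewer libraries. List members called were 24, falling to 14 in round 1 alone and 0 in round 2 alone. At 48 h the count of 51 became 84 with DESeq2, 83 with the round term, 26 in batch 2 alone and 8 with the title number as a replicate block.

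Title numbers shared by Hb and control libraries do not pair them. The correlation of their deviations ran from -0.23 to 0.44 over 9 pairs, and 2 libraries correlated best with their own number. Over 5 pairs with a shared name code, with batch and round removed, it ran from -0.16 to 0.58, and 2 correlated best with their own code. With the title number as a replicate block (18 libraries) 36 genes were called at 24 h, of which 26 were among the original 36. Calls were lost for Ephx1, Psmd5, Slc7a11, Adh7, Panx1, Cyp1a1, Psmd11, Ahrr, Sod1 and Fosl1. With the code as a block (12 libraries) 28 were called, 20 of them among the 36, and calls were lost for Gstm1, Ephx1, Psmd5, Clec4n, Osgin1, Panx1, Cyp1a1, Gclc, Txnrd1, Psmd11, Mafg, Ahrr, Tkt, Tfrc, Sod1 and Cyb5a. Both fits hold fewer libraries. Between 400 and 200 μM, 0 genes were called with a block.

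No alternative reversed a called gene. In batch 3 alone the uncalled Gpr84 (-0.34), Cd163 (-0.79), Lrp1 (-0.38) and Ftl1 (-0.086) changed sign, as did Lrp1 without Hb replicate 6 (-0.060, in a range up to 0.18 without Hb replicate 10, and -0.060 with the round term). The cause was not tested. Libraries were deep enough that only scarce genes such as Cyp1a1 rest on few counts.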
